A study of Drosophila melanogaster with 21 samples.

Results

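LS2 with its H197 to P233 stretch swapped for GGS motifs (GSlinker) was compared with wild-type LS2 (WT) in Drosophila melanogaster S2 cells, a cultured blood-cell-like line of embryonic origin. The comparison takes in the 3 GSlinker and 3 WT libraries by their titles, 6 of the 21 libraries of the series. The series asks how mutations in LS2 alter its regulation of splicing, and gave 7 groups of 3 libraries of polyA RNA. Every group carried a copper-inducible gene integrated into the genome under hygromycin selection, and every group was kept in 500 µM copper sulfate for 53 h, the controls included. Beside GSlinker and WT, the text uses Beta5 (LS2 with K192E and R194E), SF1 (LS2 with E370K and D371K, named as the group in distinction from the gene SF1) and GFP (GFP and no LS2). The d38 (W62A, D63A and I64A) and RRM2 (F285D and F287D) mutants entered the models and not the descriptions. The labels name no separate lines within a construct, so a difference between cell lines and one between constructs cannot be told apart. The labels do not say that replicates were separate cultures, so p-values measure only the spread between these libraries, which may be technical.

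LS2 is a fly paralog of U2af50, the large subunit of U2AF, and is made mainly in the testis. U2AF binds the 3′ end of introns early in spliceosome assembly: U2af50 contacts the pyrimidine-rich tract through its RNA recognition motifs, and U2af38 contacts the AG that ends the intron. The splicing factor SF1 holds the branch point beside U2AF before the U2 snRNP, with its SF3a and SF3b parts, takes that place.

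The libraries differ in a way that the constructs do not name. The deposited tables give every transcript a length and an effective length, the length that a quantifier counts reads over. The difference of these lengths, over transcripts longer than 2000 nt, had an SD of 359, 296 and 292 nt in the GSlinker libraries, against 83.9, 68.4 and 80.5 nt in the WT libraries. It was 278 to 379 nt in the 6 Beta5 and SF1 libraries and 78.2 to 81.8 nt in the GFP libraries. GSlinker, Beta5 and SF1 therefore share a pattern that WT lacks, and in any comparison with WT that pattern and the mutation cannot be told apart. Estimated counts summed to 17667236, 22034679 and 22372650 in the GSlinker libraries, the first of which was the smallest of the series. They summed to 34670761, 28961081 and 32872514 in the WT libraries, and no pair of the 21 libraries held identical values.

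For this reason each gene was also set against Beta5 and SF1, which have the same pattern as GSlinker. A gene is called shared where GSlinker, Beta5 and SF1 each differed from WT the same way. A gene is called set apart where GSlinker differed the same way from WT, from Beta5 and from SF1. The second class is the test of the difference between the mutants. The shared comparisons use the same WT libraries and the set-apart comparisons the same GSlinker libraries, so neither class is made of independent tests. The counting is not stated to use strand, so a gene that overlaps another on the opposite strand cannot be told from it. Among genes described below that holds for PGRP-LB, Dredd, DptB, AttC, Prosalpha1, Prosalpha2, Prosbeta2, Prosbeta3, Prosbeta4, Prosbeta5, Rpn8, Rpn9, Rpt4, RpS20, RpL29, RpS10a, ND-MWFE, Sf3a2, Sf3b2, Prp19, SC35, Psi, mago, spz, E2f2, p53, Pgk, Hmgs, AGO1, Dcr-2, Hsp70Ab and grk, beside those named with their partner.

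Differences from WT ran with transcript length. Genes tested were put in 5 bins by mean transcript length, from 90 to 1084 nt in the shortest to 3466 to 57425 nt in the longest. The median log2 fold change of GSlinker over WT was −0.28, −0.16, −0.09, 0.05 and 0.28 from the shortest to the longest bin. The medians were −0.24 and 0.27 at the 2 ends for Beta5 over WT, and −0.22 and 0.29 for SF1 over WT. GSlinker over Beta5 had no such run, with −0.04 at the short end and 0.00 at the long end, and GSlinker over SF1 had −0.05 and −0.02. In the shortest bin 221 genes were higher and 824 lower in GSlinker than in WT by edgeR, and in the longest bin 973 were higher and 115 lower. The comparisons with WT all share the WT libraries.

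**Figure D1:**
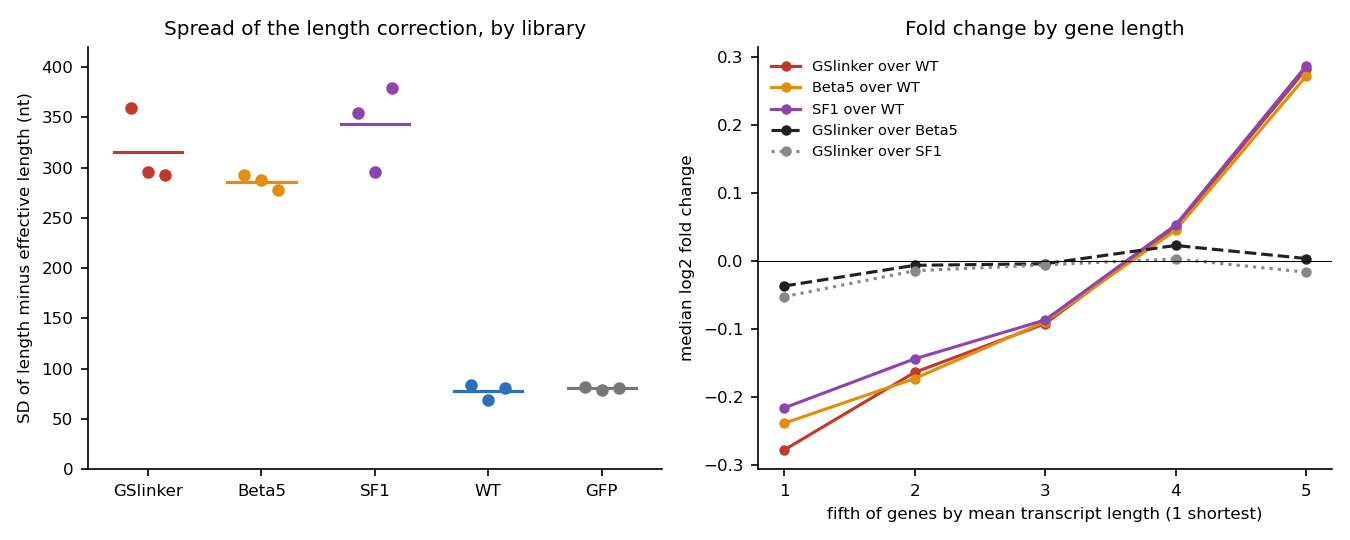
Left, SD (nt) of the difference between length and effective length over transcripts longer than 2000 nt, 1 point per library, by group. Right, median log2 fold change of the genes in each of 5 bins of mean transcript length, for GSlinker, Beta5 and SF1 over WT and for GSlinker over Beta5 and SF1: the lines over WT climb with length and the GSlinker over Beta5 and SF1 lines stay within −0.05 to 0.02.

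LS2 (FBgn0034834; minus strand of chromosome 2R from 23210130 to 23211539) was present at 5926, 7083 and 7318 TPM in GSlinker, against 6112, 6660 and 6070 TPM in WT. TPM divides counts by transcript length and makes every library sum to the same total. The groups overlapped, and 6775 ± 745 TPM in GSlinker against 6280 ± 329 TPM in WT (SD, n = 3 each) gave a difference of 0.10 on the log2(TPM + 1) scale. The two-sided exact permutation p was 0.4, where 0.1 is the smallest that 3 against 3 can give. On CPM (a gene's counts as a share of the library's TMM-scaled total, on the scale of TPM) the difference was −0.04. The GFP libraries held 1.46 to 3.97 TPM of LS2. These levels do not tell which form of LS2 was made, since the tables count the altered and the wild-type form under 1 gene.

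Expression differed from WT in 5085 of 8750 genes tested (58.1%) by edgeR's quasi-likelihood test at an adjusted p under 0.05. There were 2394 genes higher in GSlinker (27.4%) and 2691 lower (30.8%). Of the called genes, 2669 were shared with Beta5 and SF1 (30.5% of genes tested), and 478 were set apart from both (5.46%), 260 of them higher (2.97%) and 218 lower (2.49%) in GSlinker. Of all genes, 95 (1.09%) met both rules and are counted in each class, and 2033 of the called genes (23.2% of genes tested) met neither. Beta5 differed from WT in 54.0% of genes and SF1 in 49.2%, while GSlinker differed from Beta5 in 16.9% and from SF1 in 27.8%.

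Most changes were small. The median size of the log2 fold change was 0.44 over called genes, 0.51 over shared genes and 0.55 over set-apart genes, against 0.31 over all genes tested. Of the set-apart genes, 78 changed by 1 or more on the log2 scale, 48 of them higher and 30 lower. Shared genes that were higher had a median transcript length of 3898 nt and those that were lower 1279 nt, while for set-apart genes these medians were 2223 nt and 1688 nt. Set-apart genes ran with length too. In the shortest bin 23 of them were higher and 59 lower, and in the longest bin 52 were higher and 19 lower. The count of set-apart genes depended on the libraries fitted. In a fit of the 12 GSlinker, Beta5, SF1 and WT libraries alone, where 52.1% of genes differed from WT, it was 187 (2.19%), 186 of which were among the 478. It was 268 without GSlinker replicate 1 and 267 without GSlinker replicate 2. There were 136 genes, 98 higher and 38 lower, that were set apart under all 13 alternatives tried. On limma's log2(TPM + 1) scale the median of all genes moved to 0.13, against −0.03 on counts. There 43.2% of genes tested were higher and 16.4% lower, so 72.5% of called genes were higher, against 47.1% on counts. With offsets that remove each library's trend of counts on transcript length, 26.9% of genes were higher, 28.5% lower and 7.37% set apart.

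Among set-apart genes that were higher in GSlinker, with at least 10 CPM on average over the 6 GSlinker and WT libraries and with libraries that did not overlap those of WT, CG43759 (chromosome X, 18930335 to 19028629, plus strand) had the largest change. It had 27.3, 27.8 and 27.0 CPM in GSlinker, against 7.38, 8.04 and 7.29 CPM in WT, with means of 9.14 CPM in Beta5, 10.6 in SF1 and 18.9 in GFP. All GSlinker libraries were high and close together, and the log2 fold change over WT was 1.86 (SE 0.10, edgeR adjusted p = 2.51e-10), against 0.27 for Beta5 and 0.48 for SF1. Over Beta5 it was 1.58 and over SF1 1.38. GFP lay between GSlinker and WT.

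Sr-CI (chromosome 2L, 4121702 to 4124153, plus strand), a scavenger receptor by which fly blood cells bind bacteria, had 38.7, 33.4 and 35.0 CPM in GSlinker, against 13.8, 13.5 and 12.8 CPM in WT. Its means were 24.5 CPM in Beta5 and 17.3 CPM in SF1. The 3 GSlinker libraries lay above all Beta5, SF1 and WT libraries, and the log2 fold change over WT was 1.42 (SE 0.14, edgeR adjusted p = 2.26e-07), with 0.54 over Beta5 and 1.05 over SF1. CG14419 had 15.1, 16.9 and 19.6 CPM in GSlinker, against 4.83, 6.67 and 6.79 CPM in WT, 2.71 in Beta5 and 8.65 in SF1. It moved opposite ways in the mutants, with a log2 fold change over WT of 1.50 in GSlinker and −1.17 in Beta5. It overlaps kirre on the other strand, and the counting is not stated to use strand, so its reads cannot be told from reads of kirre.

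The other 3 of the 6 largest increases under these limits were also high in all GSlinker libraries. CG32700 had 18.1, 21.7 and 15 CPM in GSlinker, against 7.08, 5.97 and 5.66 CPM in WT, and overlaps CG34026 and CG34028 on the other strand. The gene l(3)neo38 had 28.3, 31.5 and 24.1 CPM in GSlinker, against 10.6, 11.5 and 9.65 CPM in WT. CG4928 had 29.0, 26.7 and 23.6 CPM in GSlinker, against 11.1, 9.83 and 9.52 CPM in WT. Their log2 fold changes over WT were 1.55, 1.40 and 1.37, and 0.89, 0.68 and 0.90 over Beta5. No overlap between GSlinker and WT was a limit for naming these genes. Of the 478 set-apart genes 359 met it together with the limit on CPM. CG4928 was not low in GFP, where it averaged 34.2 CPM, while l(3)neo38 averaged 15.4 CPM there. All 6 of these genes stayed set apart under all 13 alternatives. All of them but CG14419 met the shared rule too. For l(3)neo38 the log2 fold change over WT was 0.71 in Beta5 and 0.74 in SF1. For CG32700, SF1 replicate 2 had 15.03 CPM, against 14.97 CPM in GSlinker replicate 3.

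Among set-apart genes that were lower in GSlinker, under the same limits, CG15347 (chromosome X, 8458494 to 8460898, minus strand) had the largest change. It had 22.4, 30.4 and 37.5 CPM in GSlinker, against 90.1, 97.6 and 105 CPM in WT, with 46.9 CPM in Beta5, 76.1 in SF1 and 26.6 in GFP. The log2 fold change over WT was −1.69 (SE 0.13, edgeR adjusted p = 1.30e-08), −1.06 in Beta5 and −0.36 in SF1, so it met the shared rule too. GSlinker libraries were spread, and all lay below every WT library. Nop10, a protein of the H/ACA particles that guide pseudouridylation of RNA, had 29.6, 29.1 and 33.5 CPM in GSlinker, against 79.6, 66.3 and 82.6 CPM in WT. Its log2 fold change was −1.31 (SE 0.15, edgeR adjusted p = 1.82e-06), with −0.67 over Beta5 and −0.85 over SF1. Nop10 overlaps CG12935 on the other strand. It met the shared rule too, with log2 fold changes over WT of −0.64 in Beta5 and −0.46 in SF1. CG15347 and Nop10 stayed set apart under all 13 alternatives.

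The 4 other decreases named under these limits lost their set-apart place under several alternatives. Scgdelta, a sarcoglycan of the dystrophin complex of the cell membrane, had 11.7, 12.2 and 12.2 CPM in GSlinker, against 33.1, 28.1 and 37.3 CPM in WT, a log2 fold change of −1.45. Naxd, an enzyme that repairs hydrated NADH and NADPH, had 17.0, 19.4 and 21.7 CPM in GSlinker, against 39.7, 39.7 and 46.4 CPM in WT. CG12592 had 32.4, 26.8 and 29.8 CPM in GSlinker, against 67.5, 57.7 and 77.2 CPM in WT. CG7655, which overlaps CG31251 on the other strand, had 13.6, 17.9 and 17.6 CPM in GSlinker, against 33.3, 32.8 and 36.8 CPM in WT, with a log2 fold change of −1.06. All 4 were lower than in WT in edgeR's fit of 12 libraries as well, but none of them was then set apart from both Beta5 and SF1, nor without GSlinker replicate 1 or GSlinker replicate 2.

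**Figure D2:**
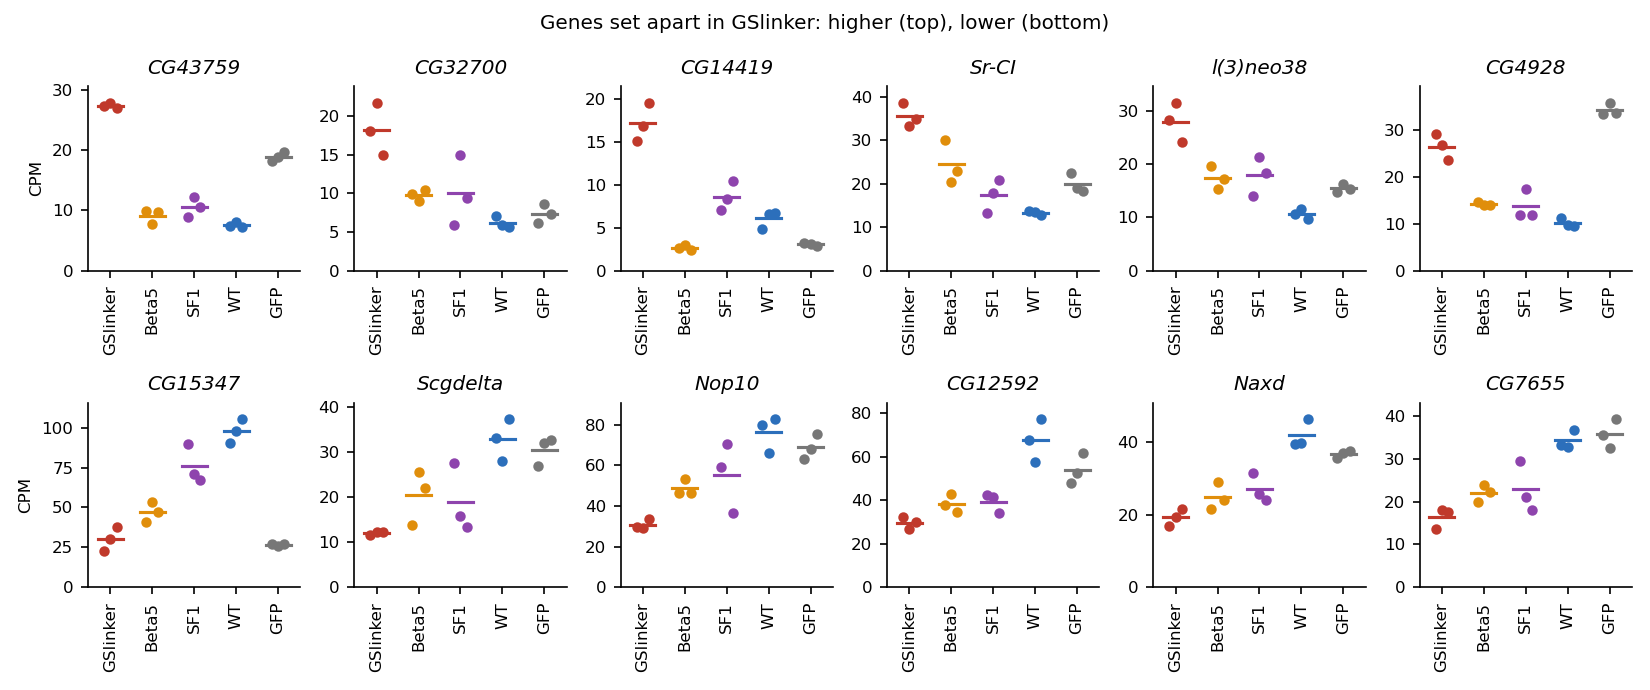
CPM by library of the 6 genes with the largest increases (top row) and the 6 with the largest decreases (bottom row) in GSlinker among set-apart genes with at least 10 CPM on average over the GSlinker and WT libraries and no overlap between them, in GSlinker, Beta5, SF1, WT and GFP; lines are group means. By the rule of choice the GSlinker points lie clear of the WT points in every panel. For CG43759 the 3 GSlinker libraries sit at 27.0 to 27.8 CPM and the WT libraries at 7.29 to 8.04 CPM.

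Most listed hemocyte markers were higher in GSlinker. Their median transcript length was 4564 nt, and 973 of the 1750 genes of the longest bin were higher. Of 12 listed hemocyte genes 11 were tested, of which 9 were higher in GSlinker than in WT and 0 lower, with a median log2 fold change of 0.51, against −0.03 over all genes and 27.4% of all genes higher. The medians were 0.14 for Beta5 and 0.17 for SF1. Of all 11, 2 were shared, against 30.5% of all genes, and 4 were set apart (Hml, eater, Col4a1 and Sr-CI), against 5.46%. The summed level of all 12 was 6454 to 7060 CPM in GSlinker, 4756 to 4918 in Beta5 and 5501 to 5904 in SF1, against 4028 to 4354 CPM in WT and 8544 to 9212 CPM in GFP. No 2 of these ranges overlapped, with GSlinker between WT and GFP. NimC1, the twelfth marker, was too low to test. In all of these bulk libraries, fewer cells of a kind and less RNA per cell cannot be told apart.

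The phagocytic receptor eater of plasmatocytes had 233, 245 and 224 CPM in GSlinker, against 149.5, 150.2 and 141 CPM in WT, with 161 CPM in Beta5 and 159.9 CPM in SF1. The log2 fold change was 0.67 over WT (SE 0.12, edgeR adjusted p = 8.62e-05), 0.54 over Beta5 and 0.55 over SF1, and eater stayed set apart under all 13 alternatives. Hml, the clotting factor hemolectin, had 211, 200.0 and 186 CPM in GSlinker, against 135, 133 and 109.7 CPM in WT. All 3 GSlinker libraries lay above the WT libraries. With the trend of counts on transcript length removed, the log2 fold change of Hml was 0.08 (edgeR adjusted p = 0.424), against 0.66 in the main fit, which ends its call.

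The type IV collagen chains of the basement membrane, Col4a1 and vkg, are neighbours in the genome and made by blood cells and fat body. Col4a1 had 2256, 2157 and 2061 CPM in GSlinker, against 1084, 1141 and 1050.0 CPM in WT. Its mean was 1183 CPM in Beta5, 1908 in SF1 and 3040.2 in GFP. GSlinker and SF1 were high and Beta5 was near WT. For vkg the log2 fold change over WT was 0.99 in GSlinker, 0.10 in Beta5 and 0.88 in SF1, so it was not set apart from SF1. Col4a1 lost its set-apart place in the fit of 12 libraries and without GSlinker replicate 1 or 2. With the length trend removed, 5 of the 11 tested markers were higher and 1 lower, with a median of 0.19, and set-apart markers numbered 3 there and in the fit of 12 libraries and 2 without GSlinker replicate 1 or 2.

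Other matrix genes went both ways. Of 9 tested genes of matrix proteins and integrins, 5 were higher in GSlinker and 1 lower, none set apart (27.4% higher, 30.8% lower and 5.46% set apart over all genes). LanB1, a laminin chain, had 1713, 1591 and 1528 CPM in GSlinker, against 1138, 1111 and 961 CPM in WT, and SPARC, a collagen-binding matrix protein, had 1519.9, 1435 and 1722 CPM in GSlinker, against 2129.6, 2146 and 2403 CPM in WT. The log2 fold changes were 0.59 for LanB1 and −0.51 for SPARC. After removal of the length trend 2 genes were higher and 4 lower, and LanA, the laminin alpha chain, turned to −0.06, against 0.51 in the main fit.

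Genes of the proteasome, which degrades ubiquitin-tagged proteins, were mostly lower. Of its 32 genes, 20 were lower (against 30.8% of all genes) in GSlinker and 4 higher, and 9 were set apart (28.1%), all lower, against 5.46% of all genes. The median log2 fold change over WT was −0.26 in GSlinker, −0.09 in Beta5 and −0.06 in SF1. The set-apart genes were Prosalpha2 and Prosalpha5 of the outer rings of the core, Prosbeta2, Prosbeta3, Prosbeta4 and Prosbeta5 of its inner rings, and Rpn3, Rpn9 and Rpt4 of the cap. The list's share was not tested against other lists. In the fit of 12 libraries 2 remained set apart (Prosbeta4 and Rpn9), where the background was 2.19%, and 3 were set apart without GSlinker replicate 1 or without GSlinker replicate 2.

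Prosbeta4 had 91.1, 103 and 115 CPM in GSlinker, against 144, 143 and 157 CPM in WT, 137 in Beta5 and 135 in SF1. Its log2 fold change was −0.53 over WT (SE 0.08, edgeR adjusted p = 1.59e-05) and −0.42 over Beta5. All 3 GSlinker libraries lay below all WT libraries, and Beta5 and SF1 lay near WT. Rpn9 had 101, 107 and 109.7 CPM in GSlinker, against 137, 139 and 157 CPM in WT. Prosalpha2 had 132, 129 and 148 CPM in GSlinker, against 230.2, 235 and 262 CPM in WT, the largest decrease of the list at −0.83. Rpn9 and Prosalpha2 did not overlap between the groups. Rpn8, a cap subunit, went the other way, with 303, 316 and 284 CPM in GSlinker, against 161, 171 and 191 CPM in WT, and was shared with Beta5 and SF1. With the length trend removed 13 genes of the list were lower and 9 higher, and 8 were set apart, all lower.

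Prosalpha1 was among the largest shared increases, with 244, 303 and 192 CPM in GSlinker, against 41.4, 23.1 and 53.7 CPM in WT. It has a near copy, Prosalpha1R, with a mean of 355 CPM in GSlinker, against 579 CPM in WT. The pair summed to 601 ± 50.9 CPM in GSlinker and 619 ± 41.4 CPM in WT (SD, n = 3 each), so the sums overlapped while the split between the copies differed, and the change of Prosalpha1 alone is uncertain.

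Most enzymes of glycolysis were lower. Of 12 genes, 8 were lower, 1 was higher and 3 did not pass in GSlinker (30.8% lower and 27.4% higher over all genes), with a median log2 fold change of −0.49, against −0.23 in Beta5 and −0.13 in SF1. Set apart, against 5.46% of all genes, were Pgi, Gapdh2 and Pgk, all lower, of which Gapdh2 stayed set apart under all 13 alternatives. Gapdh2, a glyceraldehyde-3-phosphate dehydrogenase, had 175, 183 and 201 CPM in GSlinker, against 331, 329 and 353 CPM in WT, 270.4 in Beta5 and 311 in SF1. Its log2 fold change was −0.86 (SE 0.13, edgeR adjusted p = 1.75e-05), with −0.54 over Beta5 and −0.74 over SF1. The GSlinker libraries lay below all Beta5, SF1, WT and GFP libraries. Its sister gene Gapdh1 was lower too, with 187, 185 and 219 CPM in GSlinker, against 327, 329 and 368 CPM in WT, and was shared with Beta5 and SF1. Hex-A, the hexokinase that feeds the pathway, was higher, with 235, 254 and 202 CPM in GSlinker, against 138, 128 and 120.0 CPM in WT. PyK, which ends the pathway, had 634, 623 and 649 CPM in GSlinker, against 624, 642 and 680.3 CPM in WT, and the groups overlapped. Pgi and Pgk were not set apart in the fit of 12 libraries or without GSlinker replicate 1 or 2.

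**Figure D3:**
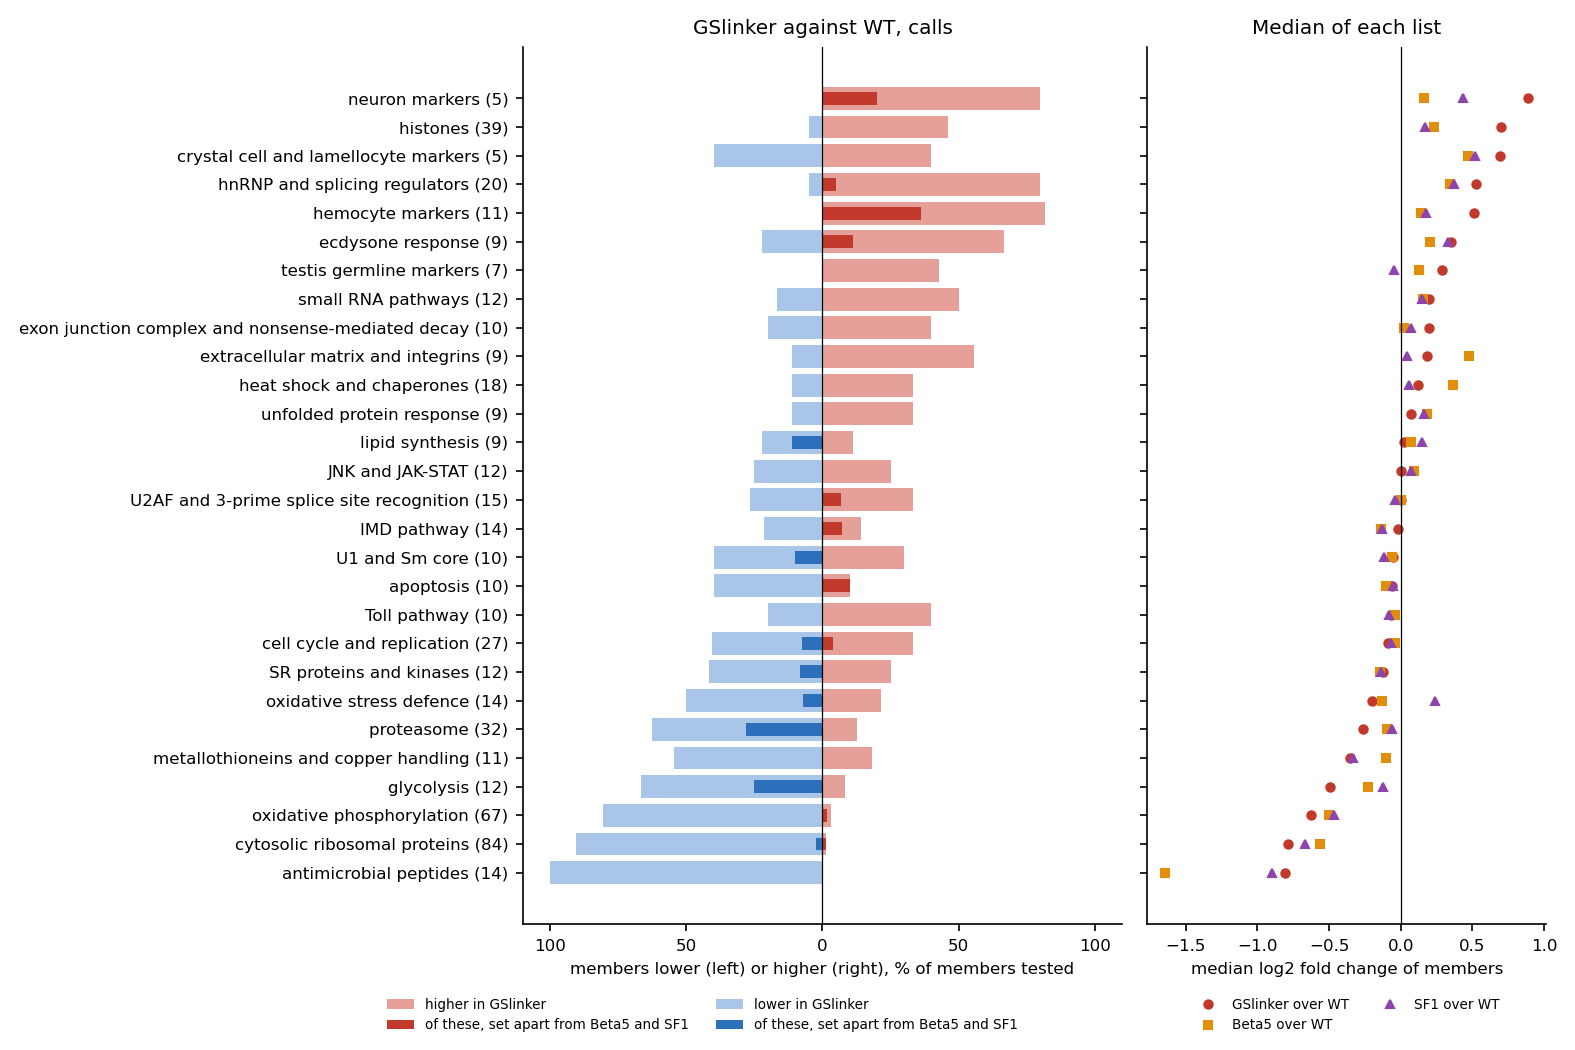
Left, percent of tested members of each gene list (number tested in brackets) lower or higher in GSlinker than in WT, with the set-apart members in the darker shade. Right, median log2 fold change over WT of each list in GSlinker, Beta5 and SF1: in the proteasome, hemocyte and glycolysis lists the GSlinker median lies farther from 0 than those of Beta5 and SF1, and for antimicrobial peptides that of Beta5 does (−1.64).

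Antimicrobial peptides, which fly blood cells and fat body secrete against bacteria and fungi, were lower in GSlinker in 14 of 14 genes (against 30.8% of all genes), with log2 fold changes of −2.51 to −0.46. Of these, 12 were shared with Beta5 and SF1 and 0 were set apart. The median was −0.81 in GSlinker, −1.64 in Beta5 and −0.90 in SF1, each over WT. Their summed level was 848 to 1038 CPM in GSlinker, 481 to 552 in Beta5 and 732 to 1002 in SF1, against 1465 to 1706 CPM in WT and 323 to 344 CPM in GFP. WT was the highest of these groups, and GSlinker lay between WT and GFP.

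CecA2, a cecropin, had 5.81, 6.07 and 7.81 CPM in GSlinker, against 28.9, 24.4 and 29.1 CPM in WT, a log2 fold change of −2.06 (SE 0.25, edgeR adjusted p = 2.31e-06). AttC, an attacin, had 3.11, 3.46 and 3.83 CPM in GSlinker, against 9.66, 10.7 and 10.6 CPM in WT and a mean of 0.188 CPM in GFP. DptB, a diptericin, had 303, 315 and 381 CPM in GSlinker, against 444, 461 and 534 CPM in WT, with 204 CPM in Beta5 and 188 in SF1. In each of the 3 genes every GSlinker library lay below every WT library. The call of DptB was lost with the length trend removed (log2 fold change −0.16, edgeR adjusted p = 0.222), against −0.53 in the main fit. Def, with the lowest log2 fold change of the list (−2.51), had under 1 CPM in every library of both groups. Its change was −3.78 without GSlinker replicate 3. After removal of the length trend 11 of the 14 peptides were lower, and 12 on limma's log2(TPM + 1) scale.

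The IMD pathway, which turns on many of these peptides through the factor Relish, showed no common direction. Of its 14 genes 2 were higher and 3 lower, below the 27.4% and 30.8% of all genes, and 9 did not pass. Rel, which encodes Relish, had 381, 374 and 367 CPM in GSlinker, against 389, 381 and 378 CPM in WT, and the groups overlapped. PGRP-LB, an amidase that degrades peptidoglycan and so limits the pathway, was set apart and higher, with 45.1, 48.4 and 44.2 CPM in GSlinker, against 25.9, 28.2 and 27.9 CPM in WT. Its mean was 18.1 CPM in Beta5 and 37.6 CPM in SF1, and the log2 fold changes over WT were 0.75 in GSlinker, −0.60 in Beta5 and 0.46 in SF1. PGRP-LB stayed set apart under all 13 alternatives. Dredd, the caspase that cleaves Relish, was lower (−0.67) and IKKbeta, a kinase that acts on Relish, higher (0.33). On limma's log2(TPM + 1) scale 8 genes of the list were higher and 1 lower.

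Of 10 tested Toll pathway genes, 4 were higher and 2 lower (27.4% and 30.8% over all genes), with a median of −0.07 that turned to 0.10 on limma's log2(TPM + 1) scale. The Toll ligand spz had 602, 604 and 585 CPM in GSlinker, against 452, 454 and 440.0 CPM in WT, and the recognition protein PGRP-SA had 45.5, 42.5 and 45.4 CPM in GSlinker, against 62.5, 60.9 and 67.6 CPM in WT. The groups did not overlap for either gene. Among 12 tested genes of the JNK and JAK-STAT pathways, 3 were higher and 3 lower, near those shares. On the log2 scale hep, a JNK kinase, was at 0.59 and the cytokine upd3 at −0.75. None of the genes in these lists was set apart.

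**Figure D4:**
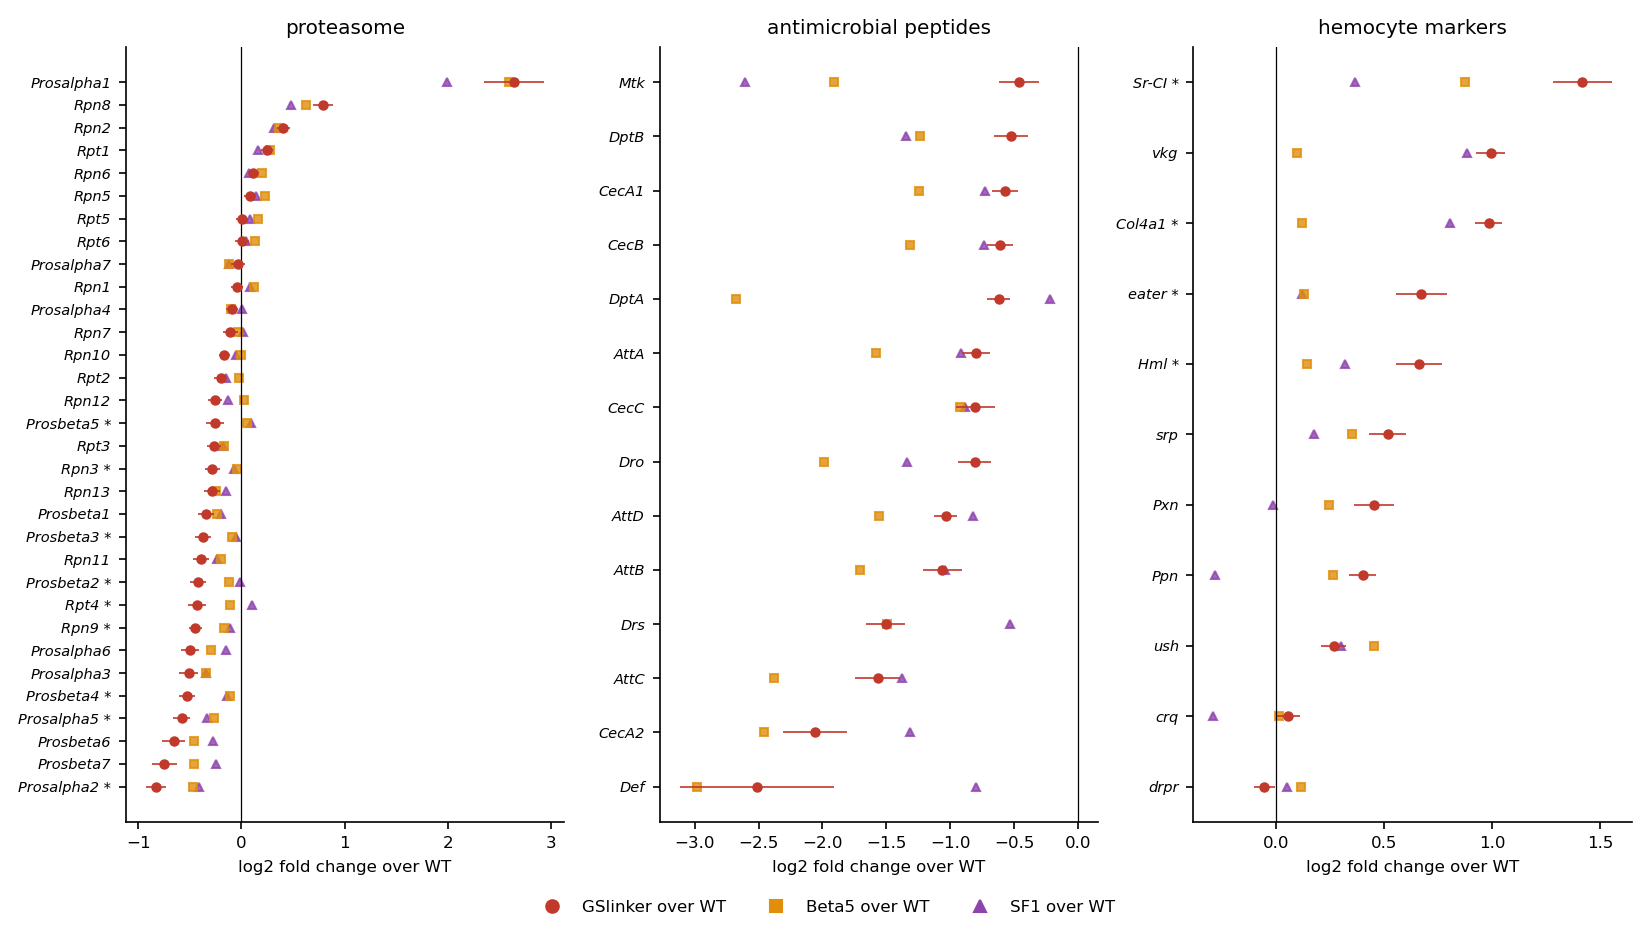
Log2 fold change over WT of each tested proteasome, antimicrobial peptide and hemocyte gene in GSlinker, Beta5 and SF1; bars are the SE of GSlinker over WT and asterisks mark set-apart genes. All 14 antimicrobial peptide genes lie left of 0 in GSlinker, and the 9 set-apart proteasome genes lie left of 0 in GSlinker with Beta5 and SF1 nearer to 0.

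Genes of ribosomal proteins and of the respiratory chain were mostly lower in all 3 mutants. Of 84 tested genes of cytosolic ribosomal proteins, 76 were lower in GSlinker than in WT and 1 higher, and 71 were shared (30.8% lower and 30.5% shared over all genes), with a median of −0.78 (−0.56 in Beta5 and −0.67 in SF1). Of 67 tested genes of oxidative phosphorylation, 54 were lower and 2 higher, and 49 were shared, beside the same shares over all genes, with a median of −0.62 (−0.50 in Beta5 and −0.46 in SF1). The summed level was 117884 to 139817 CPM in GSlinker against 187542 to 216514 CPM in WT for ribosomal proteins. For oxidative phosphorylation it was 7518 to 8566 CPM in GSlinker against 10574 to 11909 CPM in WT. Neither pair of ranges overlapped. The median transcript length was 712 nt in the ribosomal and 694.5 nt in the oxidative phosphorylation list, against 1916 nt over all genes, and 824 of the 1751 genes of the shortest bin were lower. With the length trend removed 63 of 84 and 44 of 67 were lower, with medians of −0.52 and −0.38.

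RpS20 had 567, 621 and 803 CPM in GSlinker, against 1739.8, 1694 and 2029 CPM in WT, the largest decrease among ribosomal proteins. RpL5, the member with the highest counts, had 6967, 7109.7 and 7697 CPM in GSlinker, against 7247, 7143 and 7565 CPM in WT. RpS20 did not overlap between the groups and RpL5 did. Among ribosomal genes RpL29 and RpL38 were set apart and lower, and RpS10a, a copy with 2.76, 2.80 and 4.20 CPM in GSlinker, against 2.64, 1.72 and 1.51 CPM in WT, set apart and higher. None of these 3 was set apart in the fit of 12 libraries. COX8, a subunit of cytochrome c oxidase, had 34.1, 28.0 and 31.7 CPM in GSlinker, against 83.4, 76.6 and 90 CPM in WT. ND-MWFE, a complex I subunit, was set apart and higher, with 68.8, 62.3 and 66.0 CPM in GSlinker, against 46.9, 43.2 and 55.2 CPM in WT, but not in the fit of 12 libraries, and on limma's log2(TPM + 1) scale its call over WT was lost.

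The endogenous U2AF genes differed modestly from WT. U2af50 (chromosome X, 16356696 to 16359039, minus strand), the paralog of LS2, had 63.7, 67.8 and 75.2 CPM in GSlinker, against 80.2, 79.9 and 86.3 CPM in WT, with 63.0 CPM in Beta5 and 71.5 in SF1. Its log2 fold change was −0.25 (SE 0.06, edgeR adjusted p = 0.00128), but −0.11 with the length trend removed (adjusted p = 0.0634). U2af38 had 114, 104 and 104 CPM in GSlinker, against 82.3, 82.9 and 91.8 CPM in WT, a log2 fold change of 0.32 (edgeR adjusted p = 8.31e-05). It overlaps CG11562 on the other strand. The SF1 gene had 163, 152 and 155 CPM in GSlinker, against 154, 163 and 164 CPM in WT, and did not pass. U2af50 and U2af38 did not overlap between the groups, both were shared with Beta5 and SF1, and the SF1 gene overlapped.

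Among all 15 genes of 3′ splice site recognition, 5 were higher and 4 lower, near the shares of all genes (27.4% higher and 30.8% lower). Sf3b2, a part of the U2 snRNP, was set apart, with 131, 141 and 116 CPM in GSlinker, against 75.3, 78.2 and 77.7 CPM in WT and 96.0 CPM in Beta5. Sf3a2, another U2 snRNP part, was lower (−0.75), as was Prp19 of the activated spliceosome (−0.48). Of 10 genes of the U1 snRNP and the Sm ring 3 were higher and 4 lower, beside the same shares, and SmB, at 79.6, 78.3 and 83.7 CPM in GSlinker, against 126, 119 and 136 CPM in WT, was set apart. Of 12 SR proteins and their kinases 3 were higher and 5 lower, again beside the same shares, and SC35, which binds exon enhancers, was set apart with 68.6, 69.4 and 83.7 CPM in GSlinker, against 121, 120.2 and 136 CPM in WT. Sf3b2, SmB and SC35 did not overlap between the groups. None of them was set apart in the fit of 12 libraries or without GSlinker replicate 1 or 2. On limma's log2(TPM + 1) scale these lists had 8, 5 and 6 genes higher and 2 lower each, and the median of the U1 and Sm list turned to 0.19, against −0.05, and that of the SR list to 0.14, against −0.12.

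Genes of hnRNP proteins and other splicing regulators were mostly higher. Of 20 genes, 16 were higher and 1 lower in GSlinker (27.4% and 30.8% over all genes), with a median log2 fold change of 0.53, 0.35 in Beta5 and 0.37 in SF1, and 12 were shared, against 30.5% of all genes. Psi, which regulates P element splicing, had 126, 120.0 and 100.2 CPM in GSlinker, against 63.7, 57.1 and 55.4 CPM in WT. The hnRNP gene sqd had 2882, 2968 and 2416 CPM in GSlinker, against 1642, 1478 and 1234 CPM in WT. Hrb27C, an hnRNP that also acts in mRNA localisation, had 2509.6, 2816 and 2201 CPM in GSlinker, against 1491, 1412 and 1097 CPM in WT. In all 3 every GSlinker library was above every WT library, and GSlinker and Beta5 were close. Pep was set apart (0.44 over WT, 0.31 over Beta5), though not in the fit of 12 libraries or without GSlinker replicate 1. The median transcript length of the list was 3193 nt, and with the length trend removed 14 were higher and 2 lower, with a median of 0.35. Of 10 genes of the exon junction complex and nonsense-mediated decay, 4 were higher and 2 lower, beside those same shares, with Upf1 at 0.56 and mago at −0.45. Of these, 4 were higher and 5 lower once the length trend was removed.

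Copper handling genes were followed because copper sulfate drives the construct. Of 11 tested, 6 were lower and 2 higher in GSlinker, where 30.8% of all genes were lower and 27.4% higher. MtnA, the most counted metallothionein, had 1706, 1904 and 2018 CPM in GSlinker, against 2978, 2599.9 and 3099 CPM in WT, with a mean of 4150.3 CPM in GFP. MtnD had 5.87, 8.08 and 9.61 CPM in GSlinker, against 18.9, 14.7 and 17.2 CPM in WT and 15.8 CPM in Beta5. Both genes were lower in every GSlinker library than in any WT library. On limma's log2(TPM + 1) scale MtnA was at −0.12 and did not pass, against −0.62 in the main fit, and 3 genes of the list were higher and 3 lower.

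Of 14 genes of oxidative stress defence 7 were lower and 3 higher, where 30.8% of all genes were lower and 27.4% higher. Cat, catalase, had 272, 265 and 317 CPM in GSlinker, against 504, 525 and 553 CPM in WT. GstD2, a glutathione transferase, was set apart with 3.62, 7.15 and 8.50 CPM in GSlinker, against 12.7, 13.4 and 14 CPM in WT and 18.5 CPM in SF1, though not in the fit of 12 libraries. Both were lower in all GSlinker libraries than in WT. Of 18 heat shock genes 6 were higher, near the share over all genes, and 2 lower. Hsp27, a small heat shock protein, had 972, 1124 and 1093 CPM in GSlinker, against 518, 495 and 555 CPM in WT, with 1267 CPM in Beta5 and 633 in SF1. Hsp70Ab was listed at 8.05, 4.06 and 0 CPM in GSlinker, against 0 CPM in all 3 WT libraries. The groups overlapped at 0, and the near-identical Hsp70 copies make single copies uncertain. Of 9 genes of the unfolded protein response 3 were higher, near that share too, and 1 lower, with Xbp1, its main transcription factor, at 0.43, and none was set apart.

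Of 27 cell cycle genes 9 were higher and 11 lower in GSlinker (27.4% and 30.8% over all genes), and on limma's log2(TPM + 1) scale 13 were higher and 4 lower. E2f1, which activates S phase genes, had 336, 354 and 302 CPM in GSlinker, against 206, 196 and 172 CPM in WT, and was shared. E2f2, which represses such genes, was set apart with 41.3, 43.1 and 46.7 CPM in GSlinker, against 59.0, 60.3 and 62.2 CPM in WT, and stayed so under all 13 alternatives. The groups did not overlap for either gene. CycD and its partner Cdk4 were set apart in opposite directions (−0.26 and 0.17), but CycD turned to 0.03 on limma's log2(TPM + 1) scale and the call of Cdk4 was lost in the fit of 12 libraries. Of 10 tested apoptosis genes 1 was higher and 4 lower, beside the same shares over all genes, with p53 at −0.54 and the caspase gene Dronc set apart at 0.15, though not in the fit of 12 libraries.

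The remaining lists are to be read against 27.4% of all genes higher, 30.8% lower and 5.46% set apart. Of 9 lipid synthesis genes 1 was higher and 2 lower, and Hmgs, which acts early in the mevalonate pathway, was set apart at −0.56 (103 CPM in Beta5), though not in the fit of 12 libraries. Of 12 small RNA genes 6 were higher and 2 lower, with AGO1 of the microRNA pathway at 0.72 and Dcr-2 of the siRNA pathway at 0.60, both shared. Of 9 ecdysone response genes 6 were higher and 2 lower, 3 and 3 with the length trend removed. Among them ftz-f1, a nuclear receptor, had 172, 185 and 149 CPM in GSlinker, against 104, 99.1 and 79.6 CPM in WT, and MsrA, which repairs oxidised methionine, had 29.2, 21.4 and 26.8 CPM in GSlinker, against 47.7, 44.6 and 51.4 CPM in WT. The ecdysone receptor subunit usp was set apart with 168, 161 and 151 CPM in GSlinker, against 129, 132 and 127 CPM in WT, though not in the fit of 12 libraries. Of 39 tested histone genes 18 were higher and 2 lower. The largest increases were in single copies, with His2A:CG33832 at 5.75, 5.56 and 6.28 CPM in GSlinker, against 0.296, 0.246 and 0.314 CPM in WT. The repeat copies cannot be told apart by short reads: His2A:CG33808 had 0 CPM in all GSlinker libraries, against 41.5, 41.5 and 48.0 CPM in WT, while all His2A copies summed to 52.8 ± 3.37 CPM in GSlinker and 46.2 ± 4.05 CPM in WT (SD, n = 3 each). Sums of other families went both ways. In GSlinker and WT, His4 summed to 95.5 ± 3.78 and 68.7 ± 5.58 CPM, and His2B to 9.18 ± 2.06 and 5.75 ± 1.06 CPM. His1 summed to 86.2 ± 2.73 and 106 ± 3.12 CPM, and His3 to 1.81 ± 0.231 and 2.31 ± 0.200 CPM.

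Markers of other cell types were low, and their part in any result was not tested. The 12 testis germline markers summed to 27.8 to 32.7 CPM in GSlinker, against 18.2 to 22.1 CPM in WT, with 3 of 7 tested genes higher (27.4% over all genes) and can and Mst87F at 0 in all GSlinker libraries. The spermatid mitofusin fzo had 0.575, 0.701 and 0.878 CPM in GSlinker, against 0.385, 0.456 and 0.157 CPM in WT, and bol, a translation regulator of meiosis, had 14.2, 14.9 and 12.6 CPM in GSlinker, against 7.56, 8.07 and 5.22 CPM in WT. Neither gene overlapped between the groups. The 5 neuron markers summed to 37.0 to 45.3 CPM in GSlinker, against 24.1 to 32.0 CPM in WT, with 4 of 5 genes higher, with fne at 0.690, 0.467 and 0.416 CPM in GSlinker, against 0.178, 0.105 and 0.0314 CPM in WT. Of these brp was set apart, though not in the fit of 12 libraries or without GSlinker replicate 1. Without GSlinker replicate 1, 2 of the 5 were higher. The median transcript length of the neuron list was 4944 nt, and 973 of the 1750 genes of the longest bin were higher. With the length trend removed elav and fne lost their calls (edgeR adjusted p = 0.151 and 0.0567). The neuron markers summed to 27.5 to 50.2 CPM in SF1 and 28.0 to 30.9 CPM in Beta5. Crystal cell and lamellocyte markers summed to 28.7 to 33.5 CPM in GSlinker, against 34.4 to 38.1 CPM in WT and 141 to 161 CPM in GFP, with 2 of 5 tested genes higher and 2 lower. Of these PPO1, a prophenoloxidase of crystal cells, had 5.75, 5.75 and 7.57 CPM in GSlinker, against 3.35, 2.70 and 3.58 CPM in WT, and PPO3, that of lamellocytes, had 15.6, 15.9 and 18.2 CPM in GSlinker, against 23.8, 27.0 and 25.2 CPM in WT. Female germline markers (vas was not analysed here) had 0 of 4 tested genes higher and 1 lower, grk, which lost its call in the fit of 12 libraries. Muscle markers summed to 1.34 to 1.73 CPM in GSlinker, against 1.01 to 1.58 CPM in WT. Fat body markers summed to at most 0.139 CPM in GSlinker, against 0.189 CPM in WT, with Fbp1 and Lsp1alpha at 0 in GSlinker.

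Other large shared changes lay outside these lists. Thor, which encodes the translation repressor 4E-BP, had 12.3, 13.3 and 14.2 CPM in GSlinker, against 43.5, 42.9 and 46.4 CPM in WT, with 13.8 CPM in Beta5, 25.9 in SF1 and 19.0 in GFP. Its log2 fold change was −1.74 (SE 0.10, edgeR adjusted p = 2.51e-10), and −1.68 in Beta5. CG34164, which overlaps RpL7-like, had 7.48, 9.53 and 10.3 CPM in GSlinker, against 30.7, 29.3 and 34.4 CPM in WT. The GSlinker libraries of both genes were below all WT libraries, which the naming rule asks for, and close to Beta5. CG18542 fell to at most 0.0462 CPM in GSlinker, against 21.6, 50.1 and 55.6 CPM in WT, and overlaps Unc-115b on the other strand, so that it is uncertain.

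Among shared increases, Claspin, which carries the replication checkpoint signal to its kinase, had 309, 322 and 251 CPM in GSlinker, against 101, 95.2 and 90.8 CPM in WT, with 209 CPM in Beta5 and 173 in SF1. Its log2 fold change was 1.62 (SE 0.20, edgeR adjusted p = 2.37e-06). Mnt, an antagonist of Myc, had 173, 181 and 138 CPM in GSlinker, against 71.0, 69.4 and 43.0 CPM in WT and 162 CPM in Beta5. For rgn, which overlaps barc and sa, there were 49.9, 52.5 and 40.9 CPM in GSlinker, against 16, 15.6 and 12.7 CPM in WT. In all 3 genes the GSlinker libraries lay above all WT libraries, which the naming rule asks for. Of the 2669 shared genes 2301 met that rule. Mnt was at like levels in GSlinker and Beta5.

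Isoform usage was measured as each transcript's share of the summed TPM of its gene's tested transcripts. By limma on the log odds of the share, with a Simes p per gene, 1599 of 4464 genes (35.8%) differed between GSlinker and WT at an adjusted p under 0.05. Of these, 738 were shared with Beta5 and SF1 (16.5% of genes tested), 59 were set apart from both (1.32%), and 17 met both rules (0.381%). Both rules take the p of the gene and the direction of its isoform with the largest change from WT. They do not test that isoform alone. GSlinker differed from Beta5 in 143 genes (3.20%) and from SF1 in 439 (9.83%). By edgeR's F test on transcript counts 1713 genes differed (38.4%), 768 were shared (17.2%) and 163 set apart (3.65%), and 41 genes were set apart by both tests. The F test was kept as an alternative only, because an earlier check on simulated counts of these libraries gave it many false calls. In the fit of 12 libraries 14 genes were set apart (0.328%), 11 of them among the 59, and without GSlinker replicate 3 there were 97. There were 6 genes set apart under all 12 alternatives: Rpn13, Daao1, Tre1, CG3065, CG6891 and the epsilon isotype of the 14-3-3 proteins.

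The isoform that gained and the one that lost most in each gene were compared in structure. Among the 59 set-apart genes, 14 pairs differed by a retained intron (23.7%), against 12.3% of all genes tested and 14% of shared genes. An alternative 3′ splice site, the kind of site that U2AF reads, separated 9 pairs (15.3%), against 13.9% of all genes. An alternative first exon separated 15 (25.4%, against 30.1%), a cassette exon 7 (11.9%, against 9.61%) and an alternative 5′ splice site 4 (6.78%, against 12.3%). In 20 genes (33.9%, against 39.7%) the pair had the same introns over the span they share. These are shares of genes with annotated pairs, not counts of reads over junctions, and no test was made. The median largest change in share was 16.4 points in set-apart genes and 18.1 points in shared genes, against 7.87 points over all genes tested.

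Among set-apart genes with at least 500 estimated counts in each of the 6 libraries, the largest change was in RFeSP, the Rieske protein of respiratory complex III. RFeSP-RB made up 0, 0.0273 and 22.1% of the gene in GSlinker, against 57.8, 58.4 and 62.6% in WT, a change of −52.2 points (limma adjusted p = 1.89e-04). One GSlinker library kept a part of it and the others almost none, and RFeSP-RB and the gaining isoform differ in their ends and not in their introns. RFeSP met the shared rule too, with RFeSP-RB at 44.5% in Beta5 and 48.6% in SF1. CG30015-RD made up 0, 0 and 0% in GSlinker, against 39.8, 35.0 and 45.7% in WT, with 2.96% in Beta5 and 3.82% in SF1. It was near 0 in all 3 mutants, and its loss from WT was −40.1 points (limma adjusted p = 2.26e-08), in favour of an isoform with another first exon.

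CG4572 is a retained intron case. CG4572-RB, which keeps a 133 nt intron (chromosome 3R, 19864192 to 19864324, gene on the minus strand), made up 77.0, 78.3 and 71.1% in GSlinker, against 41.7, 41.6 and 42.3% in WT, with 54.0% in Beta5, 52.6% in SF1 and 17.3% in GFP. All GSlinker libraries were above all Beta5, SF1, WT and GFP libraries, the WT libraries lay within 1 point of each other, and the change was 33.6 points (limma adjusted p = 9.21e-06). GFP was lowest. In Rpn13, the ubiquitin receptor of the proteasome, Rpn13-RE keeps a 105 nt intron (chromosome 2R, 13959100 to 13959204, gene on the minus strand). Rpn13-RE made up 46.2, 43.7 and 43.6% in GSlinker, against 19.4, 19.1 and 17.5% in WT, with 29.2% in Beta5, 24.1% in SF1 and 23.7% in GFP. GSlinker libraries were above those of all of these groups, at 25.8 points over WT (limma adjusted p = 5.74e-07), under all 12 alternatives.

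Mondo, a sugar-sensing transcription factor, changed first exons, with Mondo-RL at 11.7, 19.9 and 35.3% in GSlinker, against 47.5, 65.6 and 56.5% in WT. Mondo-RL was at 28.4 to 46.4% in Beta5 and 15.9 to 47.4% in SF1, so GSlinker overlapped both. Mondo is set apart by its p per gene, and Mondo-RL itself was not shown to differ from SF1. Ttc1-RA made up 95.1, 90.6 and 89.0% in GSlinker, against 47.8, 57.6 and 57.6% in WT, and CG2972-RA 94.0, 90.8 and 92.3% in GSlinker, against 55.8, 70.5 and 65.4% in WT. In all 3 GSlinker and WT did not overlap, and in Ttc1 and CG2972 the pair of isoforms differs in its ends alone. Ttc1 and CG2972 met the shared rule too. Ttc1-RA was at 79.8% in Beta5 and 78.1% in SF1, and CG2972-RA at 80.1% in Beta5 and 78.0% in SF1. Of the 6 leading genes none was set apart in the fit of 12 libraries, and Mondo, Ttc1 and CG2972 were not without GSlinker replicate 1. Mondo was not set apart by edgeR's F test either. Of the list genes, RpS19a, RpS4 and lz were also set apart in usage, by −8.94 points for RpS19a-RA and 1.6 points for RpS4-RB. The lz gene had 5 to 14 estimated counts per library, too few to give shares a meaning.

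**Figure D5:**
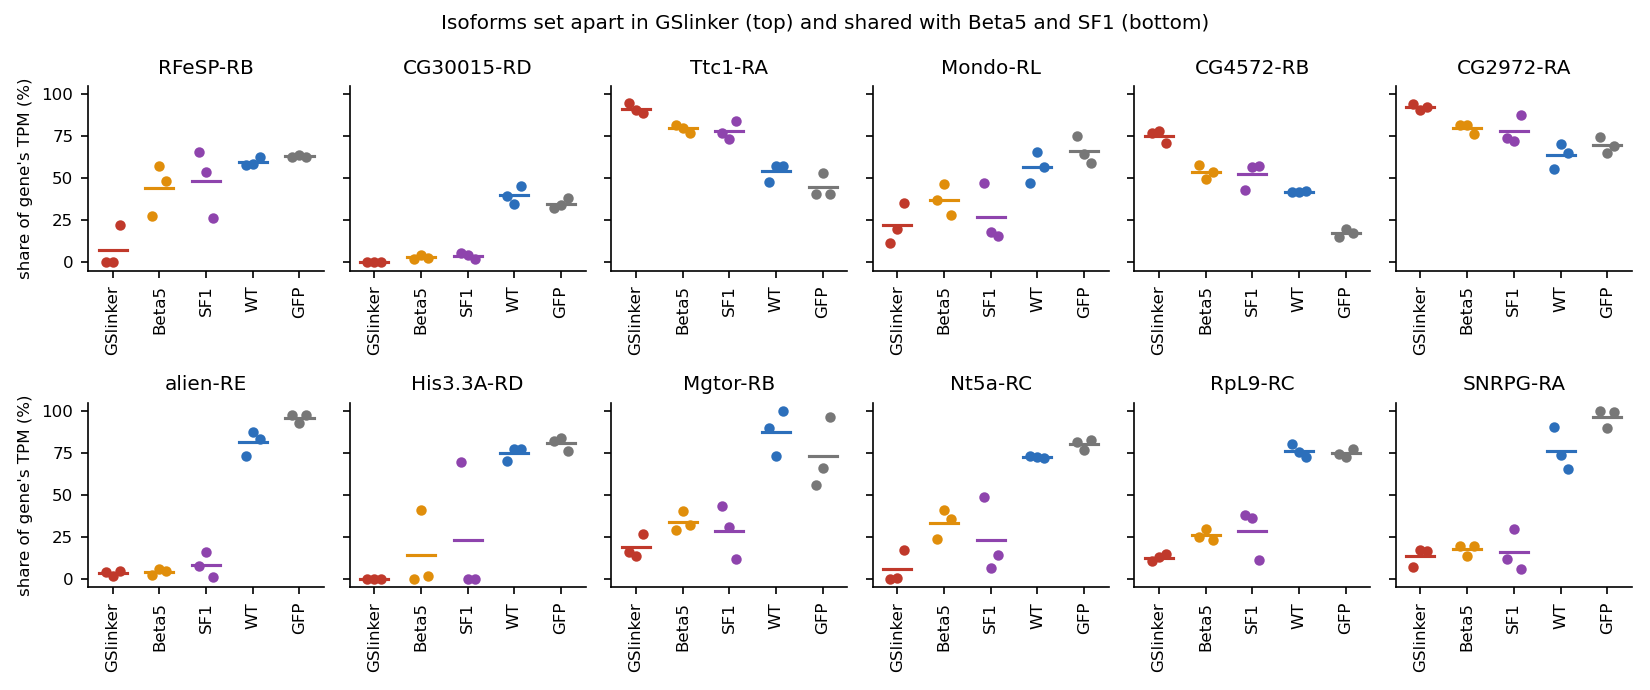
Share of each isoform in its gene's summed TPM (%), 1 point per library, in GSlinker, Beta5, SF1, WT and GFP: the 6 leading set-apart genes in the top row and the 6 leading shared genes in the bottom row. CG4572-RB is highest in GSlinker (71.1 to 78.3%), and alien-RE is under 5% in GSlinker and 73.4 to 87.7% in WT.

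The leading changes among shared genes were larger. In alien, a subunit of the COP9 signalosome, alien-RE made up 3.88, 1.92 and 4.76% in GSlinker, against 73.4, 87.7 and 83.4% in WT, with 4.31% in Beta5 and 8.26% in SF1. The change was −78 points (limma adjusted p = 2.12e-05), between isoforms that differ in their ends alone. RpL9-RC made up 10.4, 12.8 and 14.8% in GSlinker, against 80.1, 75.7 and 72.8% in WT, and SNRPG-RA, of the Sm ring protein G, 7.10, 17.4 and 16.8% in GSlinker, against 90.2, 73.7 and 65.4% in WT. Mgtor-RB, of the nuclear pore basket protein Megator, made up 16.1, 13.5 and 27.0% in GSlinker, against 90, 73.2 and 99.9% in WT. In all 4 every GSlinker, Beta5 and SF1 library was below every WT library. GSlinker was also below Beta5 in RpL9-RC and Mgtor-RB without overlap, but neither gene passed against Beta5 (limma adjusted p = 0.209 and 0.644). RpL9 was set apart as well as shared by edgeR's F test. His3.3A-RD was listed at 0% in all GSlinker libraries, against 70.2, 77.2 and 77.4% in WT, but was not shared in the fit of 12 libraries or by edgeR's F test. Nt5a-RC was at most 17.0% in GSlinker, against 73.2, 72.4 and 71.9% in WT, and was not shared by edgeR's F test. Of these 6 leading shared genes none had a pair that differed in its introns.

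The U2AF genes changed usage too. U2af50-RB, with its own first exon, made up 11.6, 17.6 and 21.6% in GSlinker, against 42.9, 44.7 and 55.3% in WT, with 23.4% in Beta5, 23.7% in SF1 and 61.7% in GFP. The change from WT was −30.7 points (limma adjusted p = 1.99e-04). All GSlinker, Beta5 and SF1 libraries were below all WT libraries, and those below all GFP libraries. U2af38-RA made up 80.7, 75.2 and 81.0% in GSlinker, against 86.4, 92.0 and 89.7% in WT, a change of −10.4 points (limma adjusted p = 0.00458). SF1-RB, an isoform of the SF1 gene with another last exon, made up 14, 16 and 14.5% in GSlinker, against 9.01, 7.99 and 7.25% in WT, and did not pass edgeR's F test (adjusted p = 0.0817). GSlinker and WT overlapped in none of these 3 isoforms. None of the 3 genes was set apart from Beta5 and SF1.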

How the data were processed

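PolyA RNA was sequenced from 21 libraries, 3 per group. The deposited tables give, per the file headers, estimated counts and TPM per transcript with length and effective length. Per the submitters' processing notes STAR, kallisto, dm6 and BDGP6 were used. Their roles, and whether counting used strand, are not given in the sources used here.

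Transcripts were joined to genes by the Ensembl release 115 BDGP6 annotation, whose 1-based coordinates are printed. Of 30594 transcripts 352 found no match and were left out. Estimated counts were summed per gene, rounded and compared by edgeR's quasi-likelihood test (edgeR 4.0.16, R 4.3.3; TMM scaling, low counts filtered at a minimum of 10). All 21 libraries shared 1 spread estimate with 14 residual degrees of freedom, and p-values were Benjamini-Hochberg adjusted over all genes. An SE is the size of the log2 fold change over the square root of the F statistic. CPM are counts as a share of the TMM-scaled total, on the scale of TPM. Isoform shares of a gene's TPM were tested with limma 3.58.1 on the log odds with an offset of 0.01, with a Simes p per gene.

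Alternatives were DESeq2 1.42.0, limma on log2 TPM, fits of 12 or 6 libraries, no filter, a replicate block, leaving out each GSlinker and WT library in turn, and offsets that remove each library's trend of log counts on mean transcript length. No Beta5 or SF1 library was left out. The edgeR and limma steps were tested on simulated data.

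Genes were named by rule: LS2, U2af50, U2af38 and SF1; the 6 highest and 6 lowest changes in each class at 10 CPM or more without overlap; the 6 largest isoform changes in each class at 500 counts or more; and from each gene list the 3 largest called changes and the most counted member. Set-apart genes of the lists were named beside them. The members and lists were chosen with earlier results of these data known. The genes vas and upd2 were not analysed here, and no sequence is printed.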

Additional observations from a re-analysis of the deposited data

Results flagged for a closer look

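The results here stand out because GSlinker differed from 2 other mutants that had a like effective-length pattern, by a test of the difference itself. The pattern differed in degree between these libraries, and its part in the differences was not tested. Expression of 478 genes and isoform usage of 59 genes differed in GSlinker from Beta5 and from SF1 in the direction of the difference from WT.

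Among the genes named for the largest changes, the log2 fold change of GSlinker over Beta5 in edgeR's fit was 2.67 for CG14419, 1.58 for CG43759, 0.90 for CG4928, 0.89 for CG32700, 0.68 for l(3)neo38 and 0.54 for Sr-CI. Among decreases it was −0.77 for Scgdelta, −0.67 for Nop10, −0.63 for CG15347, −0.42 for CG7655, −0.37 for CG12592 and −0.36 for Naxd.

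Among isoforms, the share in GSlinker minus that in Beta5 was 21.5 points for CG4572-RB, 12.3 for CG2972-RA and 11.8 for Ttc1-RA. It was −37.2 points for RFeSP-RB, −15.1 for Mondo-RL and −3.0 for CG30015-RD. Against SF1 these 3 differed by −41.3, −4.9 and −3.8 points. Mondo-RL in GSlinker overlapped both Beta5 and SF1. Groups of 3 libraries were not searched for single libraries that stand apart.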

How the results depend on the processing

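The number of genes that differed in expression between GSlinker and WT, 5085, lay between 4449 and 5210 under all alternatives, and between 4454 and 4974 with 1 of the 6 libraries left out. The shared count of 2669 lay between 1887 and 2627 with 1 library left out. The set-apart count of 478 was 187 in the fit of 12 libraries and 267 to 529 with 1 library left out, lowest without GSlinker replicate 2. For isoform usage, 1599 genes became 1255 to 1540 with 1 library left out. The shared 738 became 477 in the fit of 12 libraries and 473 to 699 with 1 library left out, lowest without WT replicate 3. The set-apart 59 became 14 in the fit of 12 libraries, 163 by edgeR's F test and 45 to 97 with 1 library left out, highest without GSlinker replicate 3. The fit of 12 libraries differs in its libraries, genes tested, scaling and spread at once; which of these moved the counts was not tested. Only GSlinker and WT libraries were left out in turn, so how far 1 Beta5 or SF1 library decides the shared and set-apart counts was not tested; the median SD of log2 CPM between replicates was 0.103 in GSlinker and 0.154 in SF1.

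The LS2 difference turned to −0.039 on CPM, against 0.10 on log2(TPM + 1), and was 0.05 to 0.20 with 1 library left out. Of the genes named by rule, some changed sign. On log2(TPM + 0.1) and log2(TPM + 1), SF1 turned to 0.17 and 0.17, grk to 0.11 and 0.10, RpL5 to 0.20 and 0.20, ATPsynbeta to 0.074 and 0.073, hid to 0.0091 and 0.0072, Desat1 to 0.13 and 0.13, and CycD to 0.033 and 0.032. With the length trend removed ACC turned to −0.17 and LanA to −0.057. In all, over genes and alternatives, 16 values changed sign with a call in the main fit or the alternative, 107 lost the call and 9 gained one. The other 1910 kept their side of the threshold. Where neither fit gave a call, a change of sign was not counted. For named isoforms 244 values kept their side of the threshold and 1 lost the call.

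Same-numbered libraries are not said to share a culture or day. Between GSlinker and WT, their deviations from the group means correlated at 0.06, 0.07 and 0.13 for expression and 0.03, −0.02 and 0.01 for isoform shares. With 3 libraries a group these low values cannot decide whether a culture or day was shared. With the replicate block 5040 genes differed in expression, 2599 were shared and 413 set apart, and 1539, 679 and 44 genes in isoform usage; the exact permutation p of LS2 was 0.5.

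With 3 libraries a group and no separate lines named within a construct, differences between lines and between constructs cannot be told apart. Isoform shares rest on the authors' assignment of reads to transcripts.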

Other observations

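Some genes outside the rule for named genes were set apart under all 13 alternatives and had larger changes at lower counts; they were chosen after their values were seen. CG43366 had 91, 156 and 135 estimated counts in GSlinker, 0 in all 3 Beta5 libraries, 3, 1 and 1 in SF1, 0 in all 3 WT libraries and 1, 0 and 0 in GFP. Of these groups GSlinker alone reached the count minimum of 10, so the set-apart place of CG43366 adds no support beyond these counts. Against a floor of 3 counts per library its level in GSlinker was at least 65.0-fold higher than in WT. Its neighbours did not pass edgeR's test, with CG7881 at −0.50 (adjusted p = 0.205) and BubR1 at 0.15 (adjusted p = 0.0668) on the log2 scale. CG34382 had 68, 76 and 116 estimated counts in GSlinker, against 7, 6 and 10 in WT. CG4374 had 43, 62 and 43 in GSlinker, against 3, 6 and 5 in WT. CG9263 went the other way, with 6, 7 and 2 in GSlinker, against 75, 69 and 58 in WT. It met the shared rule too, with 22, 29 and 19 in Beta5 and 53, 29 and 41 in SF1. None of these 4 genes overlapped between the groups.

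Among better counted genes of the same kind, Nrg, the cell adhesion protein neuroglian, averaged 57.9 CPM in GSlinker and 22.4 CPM in WT (log2 fold change 1.37). Sgs1, a salivary glue protein, averaged 12.9 CPM in GSlinker and 2.91 CPM in WT. The RNA-binding protein gene cpo averaged 19.7 CPM in GSlinker and 7.98 CPM in WT. The kinesin-like gene nod averaged 32.0 CPM in GSlinker and 64.7 CPM in WT. GstE11 averaged 5.44 CPM in GSlinker and 13.7 CPM in WT. Nrg, Sgs1 and nod met the shared rule too, and cpo and GstE11 did not. The means in Beta5 and SF1 were 42.0 and 34.2 CPM for Nrg, 6.01 and 7.51 for Sgs1, and 41.7 and 43.5 for nod. They were 9.97 and 12.6 CPM for cpo, and 8.51 and 13.5 for GstE11. Set-apart genes were spread over the larger chromosomes, with 5.06% of tested genes on 2L, 5.99% on 2R, 5.15% on 3L, 6.17% on 3R and 4.80% on X. They were 1 of 70 tested genes on chromosome 4 (1.43%) and 0 of 8 on the mitochondrial genome.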
